A study of Mus musculus with 6 samples.

Results

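Cholesterol genes were measured as a module of 34 genes that make, sense, move, store or export cholesterol, chosen by symbol among the 25230 genes of the deposited table, and all 34 had enough counts to be tested. The tissue was liver of male C57BL/6 mice given diethylnitrosamine (DEN), a liver carcinogen, by injection of 25 mg/kg at the age of 14 days. The study set 3 small lesions, regions with stacked glycogen labelled as small tumours, against 3 regions of normal adjacent liver, all dissected from fixed, paraffin-embedded sections and labelled 7 months. Both groups carried the same carcinogen treatment, so the normal regions are not untreated liver. The labels tie no region to an animal, and nothing there says that replicates came from separate mice. The p-values thus measure the spread between these 6 libraries, which may be partly technical. They would be too small if regions of the same group shared a mouse. A lesion and a normal region of the same mouse would form a pair, which a test by group alone does not use.

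Cells build cholesterol from acetyl-CoA. The mevalonate steps end in farnesyl diphosphate, squalene is then formed and oxidised, and lanosterol is trimmed to cholesterol. When sterol in the endoplasmic reticulum is low, the escort SCAP carries the transcription factor SREBP-2 to the Golgi for cleavage, and the freed factor switches on synthesis genes, whereas the INSIG proteins hold SCAP back when sterol is plentiful. The liver also takes up lipoprotein cholesterol, stores it as esters, and exports it to high-density lipoprotein or bile.

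Library totals were 7294716 to 7412833 counts in lesions and 6352898 to 6542997 in normal regions, and the lowest count of any member in any library was 33. On the second principal component of log2 CPM (counts scaled by TMM-adjusted library size), lesion 3 stood apart from lesions 1 and 2. It lay at -29.1, against 13.1 and 13.9, so results are given with and without it. That choice was made from these same data, so fits without lesion 3 are no independent support. Every library pair differed by more than counting error, with the closest pairs at 1.29 times the variance that counting gives for normal regions 2 and 3 and 1.33 times for lesions 1 and 2. The hepatocyte factor gene Hnf4a was at 706 to 734 CPM in lesions and 693 to 704 CPM in normal regions. All 11 Kupffer cell and macrophage markers fell, with a summed level of 635 to 681 CPM in lesions and 994 to 1055 CPM in normal regions, and none was at 0. By edgeR at an adjusted p under 0.05, at which 18.7% of all tested genes were higher and 18.4% lower, 2 of 7 hepatocyte markers rose and 3 fell, with the same counts without lesion 3. Alb alone had 75267 to 95287 CPM in lesions and 32380 to 35459 CPM in normal regions, and the other 6 hepatocyte markers summed to 17868 to 18508 CPM in lesions and 20036 to 21476 CPM in normal regions. Of 10 endothelial markers 1 rose and 2 fell (1 and 3 without lesion 3). Of 10 stellate cell markers 4 rose and 1 fell with all libraries, and 4 rose and 4 fell without lesion 3, where 22% of all tested genes were higher and 21.9% lower. Lesion 3 differed from the other lesions in these stellate cell markers too, in both directions. Reln, Ecm1, Dcn and Lrat were highest in lesion 3 among the lesions, whereas Col1a1, Col1a2, Acta2, Des and Pdgfrb were lowest there. Reln had 88.3, 81.2 and 164 CPM in lesions 1 to 3 and 109.7 to 119 CPM in normal regions. Col1a1 had 108, 125 and 59.3 CPM in lesions 1 to 3 and 22.8 to 25.4 CPM in normal regions. The part of these markers in the synthesis levels of lesion 3 was not tested. Of 6 biliary markers only Spp1, at 111 to 146 CPM in lesions and 16.1 to 19.7 CPM in normal regions, and Sox9 had enough counts to be tested, and the others, Krt19, Krt7, Epcam and Cftr, had at most 9 counts in any library. Of 7 lymphocyte markers only Ptprc and Cd3e had enough counts to be tested. Together they summed to 28.8 to 31.3 CPM in lesions and 37.5 to 41 CPM in normal regions. Most of that sum was Ptprc, at 25.8 to 28.7 CPM in lesions and 35.5 to 38.6 CPM in normal regions, which fell. Cd3e had 2.14 to 3.08 CPM in lesions and 1.97 to 2.35 CPM in normal regions, and did not pass (log2 fold change 0.24, edgeR adjusted p = 0.584). In bulk regions, fewer cells of a type and less RNA per cell cannot be told apart.

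The promoters of 4 members are shown. Synthesis genes are known targets of SREBP-2, which acts with the factors NF-Y and Sp1, and the efflux pair Abcg5 and Abcg8 lies head to head. The part of SREBP-2 in the changes was not tested. Each window runs from 250 bases before to 50 bases after the annotated start, 5′ to 3′ on the gene's strand, from RefSeq on GRCm38.p6. Capitals mark, on either strand, CACCCCAC (a core of the sterol regulatory element), CCAAT (bound by NF-Y), GGGCGG (bound by Sp1) and CACGTG (an E-box). The windows lie at chr13:119690101-119690400 on the plus strand (Hmgcs1), chr8:122443373-122443672 on the minus strand (Mvd), chr5:114444019-114444318 on the plus strand (Mvk) and chr17:84682962-84683261 on the minus strand (Abcg5).
Hmgcs1: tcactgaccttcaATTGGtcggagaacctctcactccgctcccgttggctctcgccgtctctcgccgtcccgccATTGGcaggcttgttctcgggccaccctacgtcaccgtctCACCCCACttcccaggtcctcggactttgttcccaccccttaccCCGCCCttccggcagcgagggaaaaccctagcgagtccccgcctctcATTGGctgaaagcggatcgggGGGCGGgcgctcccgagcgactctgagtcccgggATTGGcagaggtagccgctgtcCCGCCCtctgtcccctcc
Mvd: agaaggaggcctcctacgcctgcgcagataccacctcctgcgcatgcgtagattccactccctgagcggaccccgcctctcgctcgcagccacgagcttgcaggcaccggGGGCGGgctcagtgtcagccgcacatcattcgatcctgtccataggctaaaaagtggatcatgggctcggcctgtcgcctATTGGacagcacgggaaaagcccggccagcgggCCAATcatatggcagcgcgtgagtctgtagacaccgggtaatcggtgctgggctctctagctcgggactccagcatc
Mvk: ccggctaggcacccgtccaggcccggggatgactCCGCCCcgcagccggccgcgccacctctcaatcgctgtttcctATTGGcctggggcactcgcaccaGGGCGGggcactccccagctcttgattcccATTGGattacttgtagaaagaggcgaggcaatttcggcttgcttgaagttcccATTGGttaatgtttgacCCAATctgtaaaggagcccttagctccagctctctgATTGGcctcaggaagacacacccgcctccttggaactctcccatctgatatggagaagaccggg
Abcg5: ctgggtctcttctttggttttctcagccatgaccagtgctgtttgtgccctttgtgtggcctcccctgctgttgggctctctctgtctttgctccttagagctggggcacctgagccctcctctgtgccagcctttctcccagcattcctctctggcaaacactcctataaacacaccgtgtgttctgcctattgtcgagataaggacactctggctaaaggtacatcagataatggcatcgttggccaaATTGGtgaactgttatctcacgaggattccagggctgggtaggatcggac

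A window was matched for 27 of the 34 members, and for 16 of the 19 synthesis genes, which had 19 windows between them. CACCCCAC was found in 2 of these 19 synthesis windows, those of Hmgcs1 (136 bases before the start) and Acat2 (181 bases before it), against 2.87% of all 32851 windows. CCAAT was found in 15 of the 19, against 37.4% of all windows, and GGGCGG in 16 of the 19, against 35.7%. CACGTG was found in 3 of the 19, against 7.15%. The NF-Y and Sp1 boxes were not particular to synthesis genes. Over the 34 windows of all 27 members, CCAAT was found in 24 and GGGCGG in 26. Insig2, Soat1, Ggps1 and Mylip, members outside synthesis that fell, also had CCAAT. The Hmgcs1 window holds 4 CCAAT and 3 GGGCGG, the Mvd window 2 and 1, and the Mvk window 5 and 2, whereas the Abcg5 window holds 1 CCAAT, at the annotated start, and none of the other motifs. These matches are letters in a window and not measured binding.

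Among the members, the largest changes that passed were rises of the synthesis genes Sqle and Mvd, while most synthesis genes did not pass with all libraries. With edgeR's quasi-likelihood test and an adjusted p under 0.05, 13 of the 34 members were higher and 5 lower in lesions than in normal regions, where 18.7% of all 12506 tested genes were called higher and 18.4% lower. All lesion libraries lay above all normal libraries in 22 members and below them in 5, against 24.2% and 24% of all tested genes. By class, 6 of 19 synthesis genes passed as higher and 1 as lower, and 12 did not pass, whereas 7 of the 15 other members passed as higher and 4 as lower. All lesion libraries lay above all normal libraries in 16 of the 19 synthesis genes. The median log2 fold change was 1.08 for synthesis, 0.19 for the 5 uptake and trafficking genes, 0.15 for the 5 efflux and esterification genes and 0.0031 for all tested genes. Without lesion 3 these medians were 0.75, 0.10, 0.02 and -0.0020, and 14 of 19 synthesis genes passed as higher and 1 as lower, where 22% of all tested genes were called higher and 21.9% lower. Leaving out lesion 3 thus lowered the synthesis, uptake and efflux medians, synthesis by the largest log2 difference. With 5 genes each, the uptake and efflux medians were the values of Npc1 and Abcg8, whose groups overlapped.

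**Figure D1:**
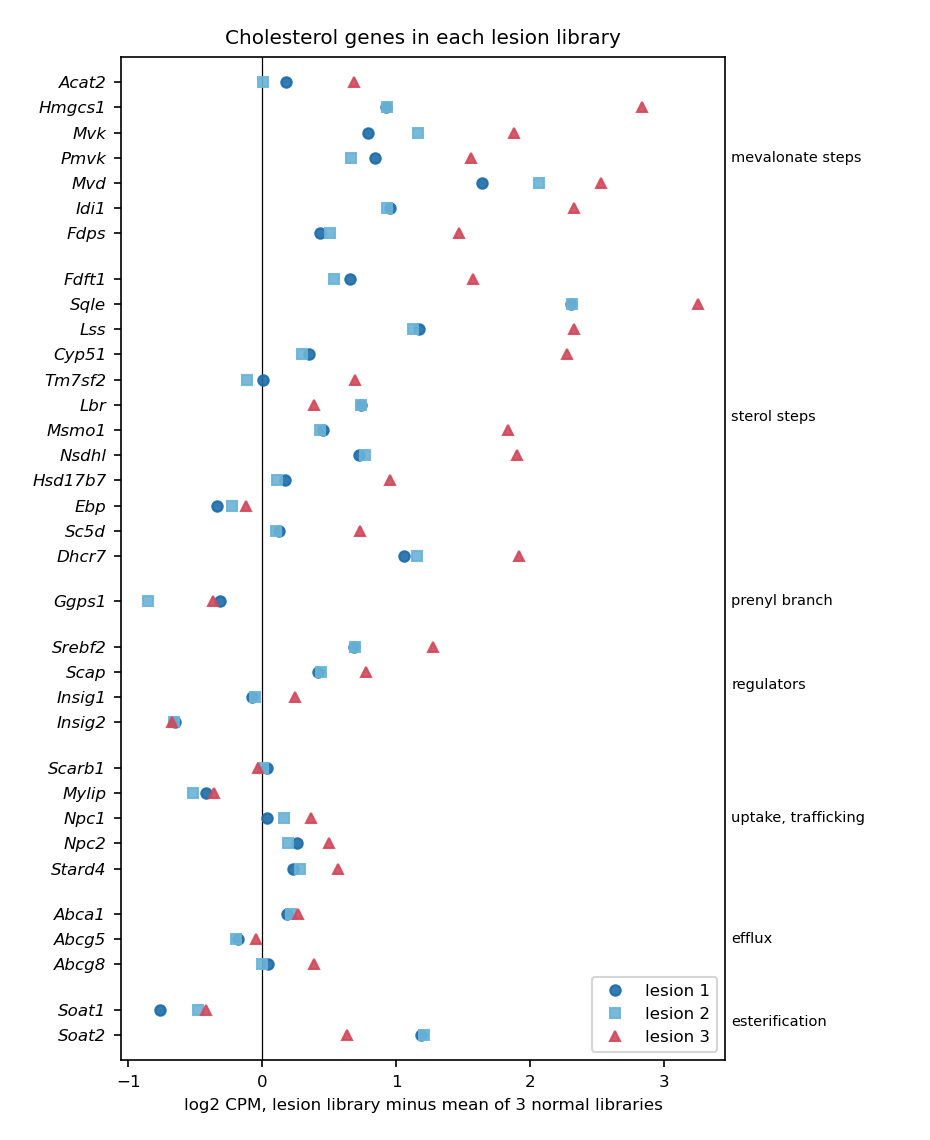
Log2 CPM of each lesion library minus the mean of the 3 normal libraries, for all 34 members by class (circle, lesion 1; square, lesion 2; triangle, lesion 3). Lesion 3 lies to the right of lesions 1 and 2 in 18 of the 19 synthesis genes, Lbr being the exception, and the spread between lesions is small for Insig2, Scarb1 and Abca1.

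Of the 7 mevalonate genes 3 rose and 4 did not pass, beside 18.7% of all tested genes higher. All lesions lay above all normal regions in 6 of the 7, beside 24.2% of all tested genes. Mvd encodes mevalonate diphosphate decarboxylase (Entrez 192156, chromosome 8, 122433596 to 122443422), and its promoter is printed above. It had 19.5, 26.3 and 36.3 CPM in lesions 1 to 3, against 5.9, 5.87 and 6.39 CPM in normal regions 1 to 3. All lesions were above all normal regions, lesion 3 highest, with a log2 fold change of 2.17 (SE 0.229, edgeR adjusted p = 2.56e-05). Mvk, mevalonate kinase, had 13.8, 17.9 and 29.7 CPM in lesions and 8.46, 8.96 and 6.39 CPM in normal regions (log2 fold change 1.36, SE 0.325, edgeR adjusted p = 0.0169). Pmvk, the next kinase of the route, had 30.8, 27.2 and 50.6 CPM in lesions and 15.4, 16 and 19.9 CPM in normal regions (log2 fold change 1.08, SE 0.286, edgeR adjusted p = 0.0336). The groups did not overlap in either kinase gene. The Mvk call was lost without normal region 1, 2 or 3 (edgeR adjusted p = 0.0672, 0.0505 and 0.0661), and the Pmvk call without any of these (edgeR adjusted p = 0.115, 0.108 and 0.0614) or without lesion 1 (edgeR adjusted p = 0.0551). With libraries left out of both groups, Mvk was lost without those numbered 2 (edgeR adjusted p = 0.0831) and Pmvk without those numbered 1 (edgeR adjusted p = 0.161).

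Hmgcs1, the cytosolic synthase that makes HMG-CoA (Entrez 208715, chromosome 13, 119690351 to 119708260), had 154, 155 and 582 CPM in lesions 1 to 3, against 79.8, 85.3 and 77.9 CPM in normal regions. Lesions 1 and 2 were nearly equal, and lesion 3 was 3.77 times their mean. With 3 lesions it had a log2 fold change of 1.87 (SE 0.693, edgeR adjusted p = 0.111), and without lesion 3 one of 0.93 (SE 0.0609, edgeR adjusted p = 4.77e-21). The smaller change passed and the larger, with its larger standard error, did not. Idi1, the isomerase that activates the isoprene unit, had 69.9, 68.6 and 181 CPM in lesions and 37.5, 36.6 and 33.7 CPM in normal regions. Its log2 fold change was 1.57 with 3 lesions (edgeR adjusted p = 0.0832) and 0.95 without lesion 3 (edgeR adjusted p = 1.19e-15). Fdps, farnesyl diphosphate synthase, had 129, 135 and 265 CPM in lesions and 96, 91.8 and 98.5 CPM in normal regions. Its log2 fold change was 0.89 with 3 lesions (edgeR adjusted p = 0.129) and 0.47 without lesion 3 (edgeR adjusted p = 1.79e-09). Idi1 and Fdps thus followed Hmgcs1 in passing without lesion 3 and not with it. Acat2, the cytosolic thiolase that opens the route, was the one mevalonate gene whose groups overlapped, with 105, 93.3 and 149 CPM in lesions and 89.2, 90.6 and 98.5 CPM in normal regions (log2 fold change 0.32, SE 0.193, edgeR adjusted p = 0.269).

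**Figure D2:**
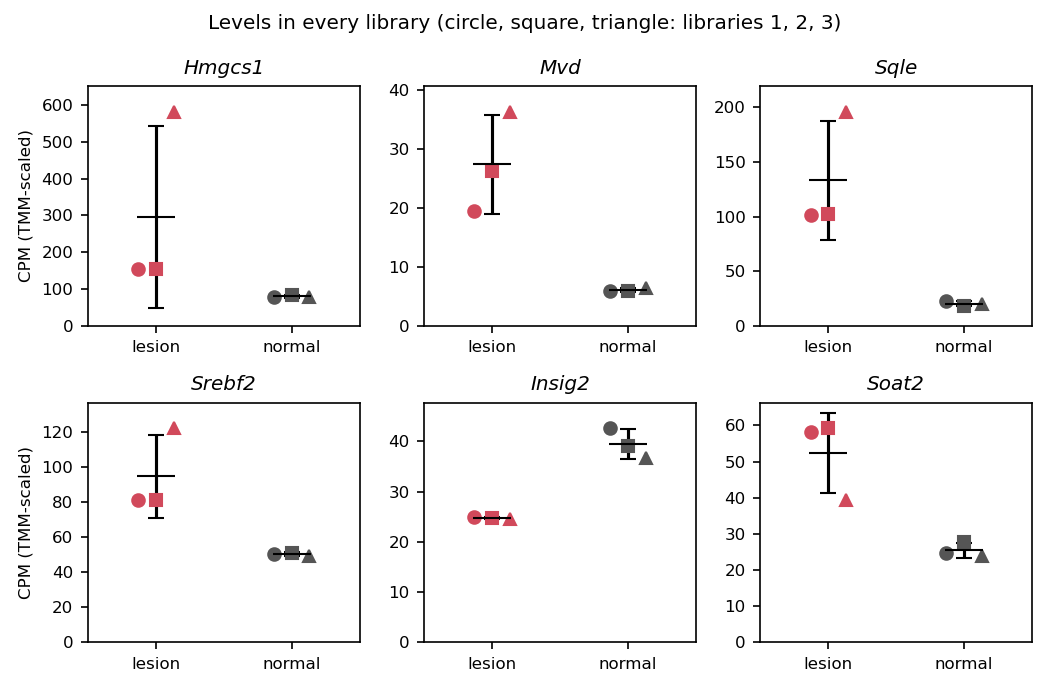
Levels in CPM on linear axes from 0 for Hmgcs1, Mvd, Sqle, Srebf2, Insig2 and Soat2, with lesions left of normal regions. Points are libraries (circle, square and triangle for libraries 1, 2 and 3), and the horizontal bar and whiskers are the mean and SD of 3. The groups do not overlap in any panel, and lesion 3 is the highest lesion for Hmgcs1 (582 CPM) and the lowest for Soat2 (39.5 CPM).

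Among the sterol steps the largest change was in Sqle, squalene epoxidase (Entrez 20775, chromosome 15, 59315092 to 59331193), a rate-limiting oxygenase of the pathway. Sqle had 102, 102 and 196 CPM in lesions, against 22.5, 18.5 and 19.9 CPM in normal regions. Every lesion was far above every normal region, with a log2 fold change of 2.71, or 6.55-fold (SE 0.382, edgeR adjusted p = 0.00726). The call held with any single library left out, and was lost when libraries numbered 1, or those numbered 2, were left out of both groups at once (edgeR adjusted p = 0.0724 and 0.0711). Dhcr7 encodes the reductase of the last step of one arm (Entrez 13360, chromosome 7, 143823167 to 143848410). It had 98, 104 and 178 CPM in lesions and 46.1, 42 and 52.9 CPM in normal regions (log2 fold change 1.43, SE 0.305, edgeR adjusted p = 0.0254). Leaving out normal region 1, 2 or 3 ended the Dhcr7 call (edgeR adjusted p = 0.0913, 0.0908 and 0.0715). So did leaving out the libraries numbered 1, or those numbered 2, in both groups (edgeR adjusted p = 0.114 and 0.131). Lbr, a nuclear envelope protein with sterol reductase activity, had 22.5, 22.5 and 17.6 CPM in lesions and 14.7, 12.5 and 13.1 CPM in normal regions. It rose (log2 fold change 0.64, SE 0.136, edgeR adjusted p = 0.000958), and it was the one synthesis gene in which lesion 3 was the lowest lesion.

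Ebp was the one synthesis gene that fell. It encodes the sterol isomerase also known as emopamil-binding protein, and had 76.6, 82.6 and 89.1 CPM in lesions and 92.8, 94.7 and 103 CPM in normal regions (log2 fold change -0.23, SE 0.0748, edgeR adjusted p = 0.0215). The groups did not overlap, but the call was lost without lesion 1 or 2 (edgeR adjusted p = 0.134 and 0.0604), without normal region 2 or 3 (edgeR adjusted p = 0.0526 and 0.126), and with DESeq2 (adjusted p = 0.0917).

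Of the other 8 sterol genes, 7 had all lesions above all normal regions without passing. Over all tested genes, passing or not, 24.2% had all lesions above. Lss, which closes the ring to lanosterol, had 64, 62 and 143 CPM in lesions and 28, 30.8 and 26.3 CPM in normal regions, and just missed the threshold (log2 fold change 1.66, edgeR adjusted p = 0.0503). Cyp51, the lanosterol demethylase, had 55.6, 53.8 and 212 CPM in lesions and 43.5, 47.3 and 40.2 CPM in normal regions. Lesion 3 was thus 3.88 times the mean of lesions 1 and 2 for Cyp51, the highest such ratio in the module. Nsdhl and Msmo1 act together in removing methyl groups from the ring. Nsdhl had 53.1, 54.6 and 121 CPM in lesions and 31.7, 34.1 and 30.4 CPM in normal regions (2.37-fold, edgeR adjusted p = 0.0918), and Msmo1 had 36.8, 36.1 and 96.3 CPM in lesions and 28, 23.4 and 29.2 CPM in normal regions (2.1-fold, edgeR adjusted p = 0.194). As in Cyp51, lesions 1 and 2 were close to each other and lesion 3 was well above them. Fdft1, squalene synthase, had a log2 fold change of 0.99, the ketoreductase gene Hsd17b7 0.47, and the desaturase gene Sc5d 0.35 (edgeR adjusted p = 0.105, 0.243 and 0.261). In Tm7sf2, a sterol reductase gene with the same reaction as Lbr, the groups overlapped, at 37.3, 34.4 and 60.3 CPM in lesions and 36, 40.4 and 35.6 CPM in normal regions (edgeR adjusted p = 0.498).

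Leaving out lesion 3 added calls in this class. Of the 14 synthesis genes then called higher, 6 had passed with 3 lesions and 8 had not (Hmgcs1, Idi1, Fdps, Fdft1, Lss, Cyp51, Msmo1 and Nsdhl). Their log2 fold changes ran from 0.32 (Cyp51) to 2.33 (Sqle), with edgeR adjusted p from 5.09e-34 to 0.00123. These p-values rest on lesions 1 and 2, which differed by only 1.33 times the variance that counting gives. Small standard errors follow from leaving out the lesion that stood apart. For genes not given above, the log2 fold changes without lesion 3 were 0.75 for Nsdhl, 0.44 for Msmo1, 1.15 for Lss and 0.59 for Fdft1. Acat2, Tm7sf2, Hsd17b7 and Sc5d had log2 fold changes of 0.09, -0.06, 0.14 and 0.11 without lesion 3 and did not pass.

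**Figure D3:**
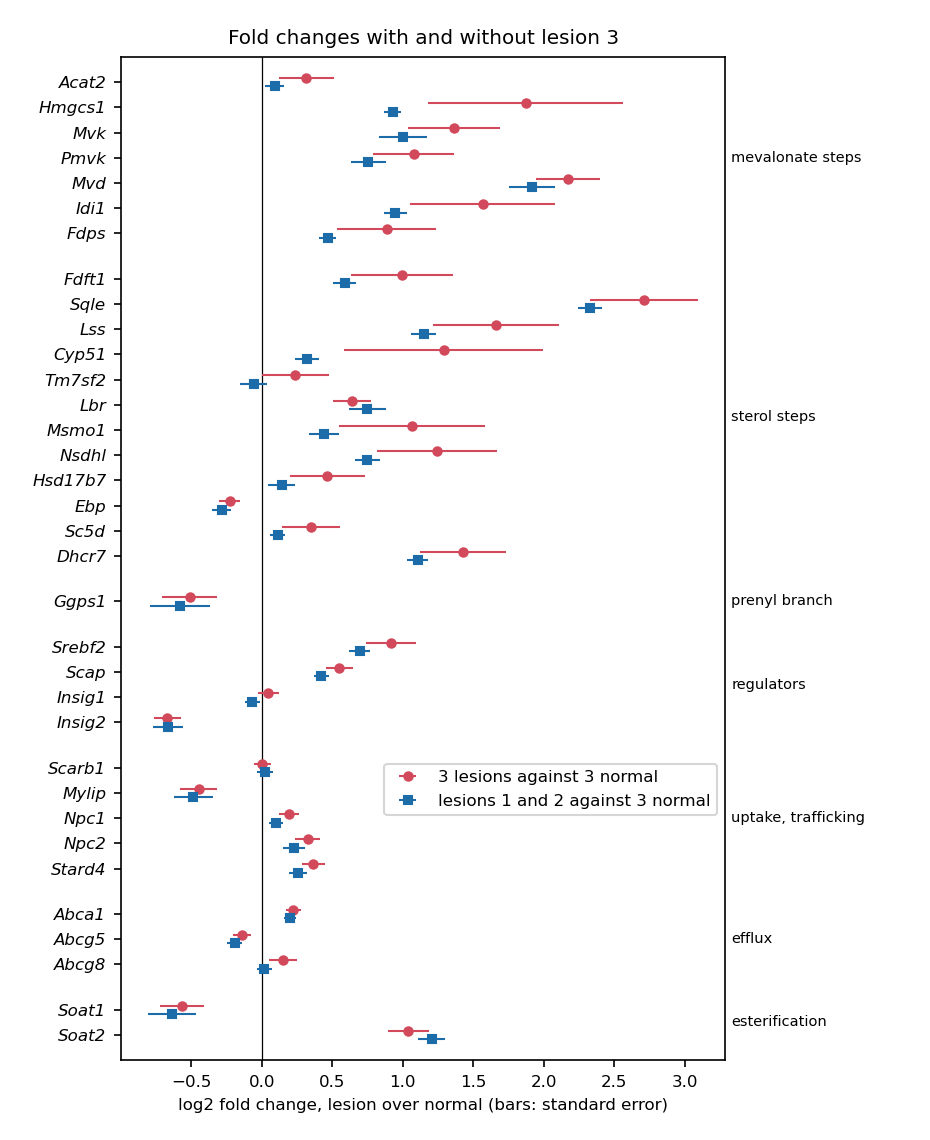
Log2 fold change of lesions over normal regions for each member with its standard error, from all 6 libraries (circles) and without lesion 3 (squares). For the synthesis genes other than Lbr the circles lie to the right with wider bars (Hmgcs1 at 1.87 with an SE of 0.693, against 0.93 with an SE of 0.0609), while Insig2 and Abca1 hardly move.

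Each lesion was also set alone against the 3 normal regions, an alternative chosen after seeing the data in which the lone lesion is assumed to vary as the normal regions do. By edgeR in lesion 1, 14 synthesis genes were higher and 1 was lower, where 16.4% of tested genes were higher and 16% lower. In lesion 2 the counts were also 14 and 1, and the same 14 genes were higher as in lesion 1, with 18% of tested genes higher and 17.6% lower. In lesion 3, 17 were higher and Lbr and Ebp did not pass, with 15.8% of tested genes higher and 13.9% lower. The genes higher in all lesions numbered 13. Summed over the class, synthesis genes had 1382, 1381 and 2923 CPM in lesions 1 to 3, against 939, 942 and 969 CPM in normal regions. Lesion 3 was the highest lesion in 18 of 19 synthesis genes, and the lowest in 1, against 38% and 38.2% of all tested genes, and in the middle of the class it was 1.87 times the mean of lesions 1 and 2. The difference between lesions rests on 1 library and has no replicate.

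**Figure D4:**
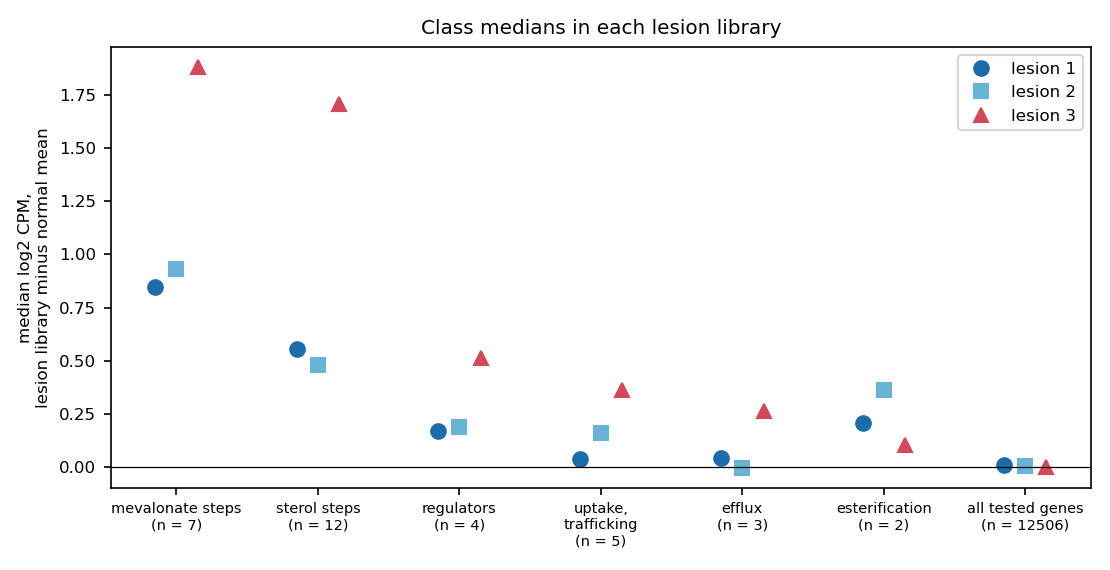
Median over the genes of each class of log2 CPM in a lesion library minus the normal mean, with n genes under each class and all tested genes at the right. The mevalonate steps stand at 0.85, 0.93 and 1.88 and the sterol steps at 0.55, 0.48 and 1.71 in lesions 1 to 3, while all tested genes stand near 0.

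The regulators moved in different directions. Srebf2, which encodes SREBP-2 (Entrez 20788, chromosome 15, 82147269 to 82205379), had 81.2, 81.5 and 122 CPM in lesions, against 50.5, 51.3 and 49.1 CPM in normal regions. It rose in all lesions, most in lesion 3 (log2 fold change 0.92, SE 0.176, edgeR adjusted p = 0.00774). Scap, the escort protein gene, had 188, 191 and 243 CPM in lesions and 134, 138 and 153 CPM in normal regions, and also rose (log2 fold change 0.55, SE 0.0955, edgeR adjusted p = 0.000726). Insig2, one of the retention proteins (Entrez 72999, chromosome 1, 121304353 to 121332662), had 24.9, 24.8 and 24.6 CPM in lesions, against 42.6, 39.1 and 36.6 CPM in normal regions. The lesions were nearly identical to each other, lesion 3 included, and all were below every normal region (log2 fold change -0.67, SE 0.0977, edgeR adjusted p = 2.17e-05). Insig1, the other retention protein and itself a known SREBP target, had 163, 165 and 204 CPM in lesions and 174, 169.9 and 171 CPM in normal regions. Its lesions lay on both sides of the normal range, and no change passed (log2 fold change 0.05, SE 0.0767, edgeR adjusted p = 0.672). The Srebf2, Scap and Insig2 calls held in all 21 alternative settings, libraries left out included.

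The prenyl branch gene Ggps1, whose enzyme makes geranylgeranyl diphosphate from farnesyl diphosphate, fell. It had 6.84, 4.62 and 6.59 CPM in lesions and 8.77, 8.81 and 8.14 CPM in normal regions (log2 fold change -0.51, SE 0.195, edgeR adjusted p = 0.0454). The call was lost without lesion 2 (edgeR adjusted p = 0.204) or without normal region 1, 2 or 3 (edgeR adjusted p = 0.11, 0.119 and 0.0756), and with DESeq2 (adjusted p = 0.189).

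Among the 5 uptake and trafficking genes were 3 that rose and 1 that fell, beside 18.7% of all tested genes higher and 18.4% lower. Log2 fold changes of the 5 lay between -0.45 and 0.37. Scarb1, the receptor that takes up cholesteryl ester from high-density lipoprotein, had 155, 151 and 148 CPM in lesions and 148, 155 and 149.9 CPM in normal regions, and the groups overlapped fully (log2 fold change 0.0042, SE 0.0606, edgeR adjusted p = 0.967). Mylip, a ubiquitin ligase that marks lipoprotein receptors for degradation, had 15.1, 14.1 and 15.8 CPM in lesions and 20.4, 17.5 and 23.5 CPM in normal regions. It fell (log2 fold change -0.45, SE 0.133, edgeR adjusted p = 0.0119), a call lost without normal region 3 (edgeR adjusted p = 0.093) and with DESeq2 (adjusted p = 0.0676). The Mylip call was also lost without the libraries numbered 1 in both groups (edgeR adjusted p = 0.079). Stard4, a carrier of sterol between membranes, had 113, 117 and 143 CPM in lesions and 96.1, 96 and 97.1 CPM in normal regions, with no overlap (log2 fold change 0.37, SE 0.0798, edgeR adjusted p = 0.00129).

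Npc2 and Npc1 hand cholesterol out of the lysosome. Npc2 had 58.1, 55.4 and 68.6 CPM in lesions and 47.5, 49.5 and 48.4 CPM in normal regions, and rose (log2 fold change 0.33, SE 0.0877, edgeR adjusted p = 0.0065). Npc1 had 190.0, 207 and 238 CPM in lesions and 180.3, 183 and 192 CPM in normal regions. Its groups overlapped, and it passed narrowly (log2 fold change 0.19, SE 0.073, edgeR adjusted p = 0.0453). Npc1 no longer passed without lesion 2 or 3 (edgeR adjusted p = 0.0714 and 0.118), without normal region 1, 2 or 3 (edgeR adjusted p = 0.16, 0.155 and 0.0786), and with DESeq2 (adjusted p = 0.134). Scaled by library size only, both calls were lost (edgeR adjusted p = 0.0899 for Npc2 and 0.579 for Npc1). The Npc2 call was also lost without the libraries numbered 1 in both groups (edgeR adjusted p = 0.0514).

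Of the efflux genes, Abca1 rose and the biliary pair did not pass. Abca1, which loads cholesterol onto apolipoprotein A-I, had 602, 613 and 635 CPM in lesions and 539, 533 and 513 CPM in normal regions, with no overlap (log2 fold change 0.22, SE 0.0541, edgeR adjusted p = 0.003). Scaled by library size only, the Abca1 change was 0.08 (edgeR adjusted p = 0.225). The Abca1 call was also lost without the libraries numbered 2 in both groups (edgeR adjusted p = 0.0699). Abcg5 and Abcg8 encode the partners of one transporter that secretes sterol into bile, and their promoter windows share 209 bases. Abcg5 had 154, 153 and 169.8 CPM in lesions and 175, 182 and 169 CPM in normal regions (log2 fold change -0.14, SE 0.0637, edgeR adjusted p = 0.0852). Lesions 1 and 2 were below the normal range and lesion 3 within it, and without lesion 3 Abcg5 passed as lower (log2 fold change -0.19, edgeR adjusted p = 0.00246). Abcg8 had 197, 191 and 249.8 CPM in lesions and 178, 189.6 and 208 CPM in normal regions, with overlap (log2 fold change 0.15, SE 0.1, edgeR adjusted p = 0.278). The annotated spans of the pair overlap by 6710 bases on opposite strands, and the strand setting of the counting is not given in the sources used here, so reads in that stretch could be shared.

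The esterification genes moved in opposite directions. Soat2, the acyltransferase of hepatocytes and intestine (Entrez 223920, chromosome 15, 102150415 to 102163469), had 58.1, 59.2 and 39.5 CPM in lesions, against 24.6, 27.8 and 24 CPM in normal regions. It rose in all lesions (log2 fold change 1.04, SE 0.148, edgeR adjusted p = 0.00021), and here lesion 3, the highest lesion for most synthesis genes, was the lowest, at 0.673 times the mean of lesions 1 and 2. Soat1, the isoform found widely and prominent in macrophages, had 8.12, 9.94 and 10.4 CPM in lesions and 15.7, 13.7 and 12.8 CPM in normal regions, and fell (log2 fold change -0.57, SE 0.156, edgeR adjusted p = 0.00751). Leaving out the libraries numbered 1 from both groups ended the Soat1 call (log2 fold change -0.38, edgeR adjusted p = 0.173), as did setting lesion 2 or lesion 3 alone against the normal regions (edgeR adjusted p = 0.0566 and 0.122). The 11 macrophage markers fell beside it. Csf1r, a growth factor receptor of that lineage, had 117, 112 and 132 CPM in lesions and 173, 179 and 184 CPM in normal regions (log2 fold change -0.57, edgeR adjusted p = 1.97e-06). Their part in the Soat1 result was not tested.

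Per gene length, the authors' FPKM values (fragments scaled by gene length and library size) place Sc5d highest among members in normal regions, at 82.7 ± 2.97 FPKM (SD, n = 3), followed by Abcg5 at 72.3 ± 2.63 and Fdps at 64.8 ± 2.26. In lesions the means were led by Fdps, at 120 ± 52.6 FPKM, and Sc5d, at 105 ± 28.1, followed by Hmgcs1 at 82.3 ± 68.7. Hmgcs1 had 42.6, 42.7 and 162 FPKM in lesions 1 to 3, below Fdps in each, at 87.2, 91.6 and 180. The place of Hmgcs1 rested on lesion 3, since Abcg5 had 63.4 and 62.7 FPKM in lesions 1 and 2. Sc5d had 89.9, 88.3 and 138 FPKM, above Fdps in lesion 1 only. Hmgcs1 was at 22.5 ± 1.09 FPKM in normal regions. Sqle stood at 48 ± 19.7 FPKM in lesions and 7.33 ± 0.726 in normal regions. The lowest members in both groups were Ggps1, at 1.08 ± 0.219 FPKM in lesions and 1.54 ± 0.0677 in normal regions, and Soat1, at 1.96 ± 0.251 and 2.91 ± 0.309.

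**Figure D5:**
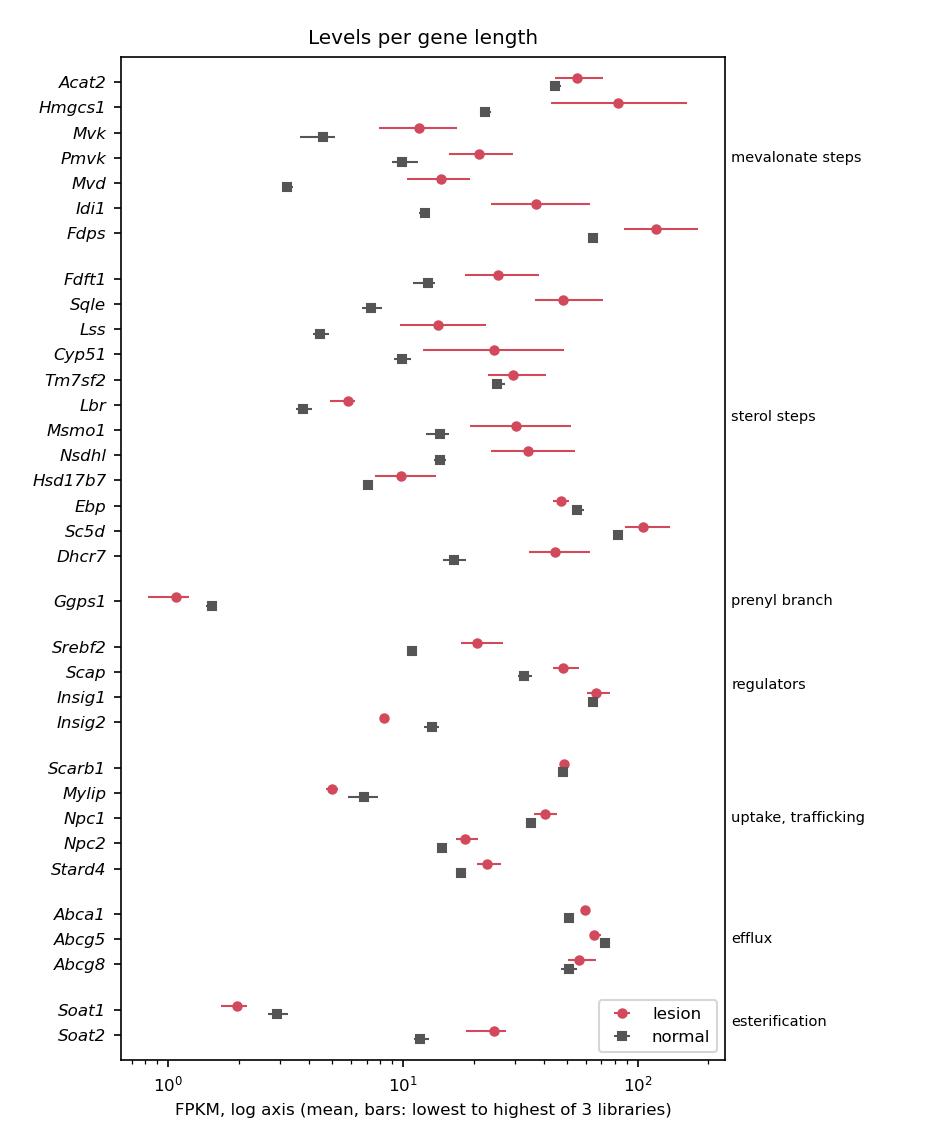
Mean FPKM of each member on a log axis in lesions (circles) and normal regions (squares), with bars from the lowest to the highest of 3 libraries. Bars are wide in lesions and narrow in normal regions for most synthesis genes, as for Hmgcs1 with a mean of 82.3 FPKM in lesions and 22.5 FPKM in normal regions.

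The authors' deposited table of lesion against adjacent tissue called 18 members higher and 2 lower at an adjusted p under 0.05, where it called 12.1% of its genes higher and 11.2% lower. Its log2 fold changes differed from those given here by at most 0.0038. It shared 14 calls with the test used here, and added 6 synthesis genes (Hmgcs1, Idi1, Fdps, Fdft1, Lss and Nsdhl). DESeq2 run on the counts called as many members, 18 higher and 2 lower, with 11.9% of its genes higher and 10.9% lower. The 4 members called here and not in the authors' deposited table were Ebp, Ggps1, Mylip and Npc1.

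A list of 48 other genes of cholesterol handling was split in direction. Of its 45 tested genes 10 were higher, 16 were lower and 19 did not pass, with a median log2 fold change of -0.02, beside 18.7% higher and 18.4% lower over all tested genes. Without lesion 3 the counts were 11 and 19, beside 22% and 21.9%. The 5 with the lowest p fell. Lipc, hepatic lipase, had 40, 40 and 41.9 CPM in lesions and 76.2, 79.9 and 83.3 CPM in normal regions (log2 fold change -0.97, edgeR adjusted p = 5.27e-09). Sec14l2, a lipid-binding protein gene, had a log2 fold change of -0.58 and the oxysterol-binding family gene Osbpl9 -0.60 (edgeR adjusted p = 4.98e-07 and 8.41e-07). Lcat, which esterifies cholesterol in plasma, had a log2 fold change of -0.53, and Lipa, the lysosomal acid lipase, -0.60 (edgeR adjusted p = 1.53e-06 and 6.78e-06). Next came Syvn1, a ubiquitin ligase of the endoplasmic reticulum, which rose by 0.49 on the log2 scale (edgeR adjusted p = 7.04e-06).

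The tested genes outside the module whose levels over the 6 libraries were most like the mean of the synthesis genes were Fads2, Cd9, Chrna4, Gstm4 and Fetub (Pearson r = 0.996, 0.995, 0.995, 0.994 and 0.993 among 9806 genes with at least 5 CPM on average). These values describe 6 points, namely 3 similar normal regions, 2 similar lesions and lesion 3, so a high r rests on few distinct levels. Of the 9806 genes, 8 had an r over 0.99. Fads2, a fatty acid desaturase, had 646, 647 and 807 CPM in lesions and 570.2, 569 and 558 CPM in normal regions. Cd9, a membrane tetraspanin, had 23.5, 21.1 and 61.9 CPM in lesions and 11.3, 10.7 and 11 CPM in normal regions. Both follow the order of normal regions, then lesions 1 and 2, then lesion 3. Among members outside synthesis, r with the same mean was 0.99 for Stard4, 0.98 for Npc2, 0.97 for Srebf2 and 0.96 for Scap, and -0.80 for Insig2, over the same 6 libraries.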

How the data were processed

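Ribosomal-RNA-depleted total RNA of 6 formalin-fixed, dissected liver regions was sequenced, with libraries made from about 500 ng and 15 PCR cycles, per the labels' protocols. The submitters' processing notes name STAR 2.5.2b, cutadapt 1.18, CASAVA 1.8, DESeq2 1.24.0 and the build mm10, without saying what each did. How counts were made, on which annotation and strand, is not given in the sources used here. The authors deposited whole-number counts per gene and FPKM values, in which counts are divided by gene length and a scaled library size. The authors' deposited comparison holds a mean normalized signal, a log2 fold change, a test score and p-values per gene. Counting error understates PCR error, since molecular identifiers are not named.

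Genes passing edgeR's default expression filter (12506) were given TMM scaling factors (trimmed mean of M values) and tested with edgeR 4.0.16 in R 4.3.3 (quasi-likelihood, robust, two-sided, group as the only term, Benjamini-Hochberg over all tested genes). Standard errors are the log2 fold change over the square root of F. Library differences use log2 CPM with a prior count of 2. In a simulated data set, 200 of 12354 genes were changed by 1 on the log2 scale. The test recovered 94.5% of them, and 8.7% of its calls were false, more than the threshold allows. Far more genes were called in the real data, so this share may not carry over. Calls just under 0.05 are taken as less secure. Alternatives used DESeq2 1.42.0, limma 3.58.1, other scalings and filters, FPKM with pseudocounts of 1 and 0.1, the replicate number as a block, and libraries left out. Values in every library are given for members that passed and for the regulators, and for some others chosen after their values were seen. The 6 other pathway genes are those with the lowest p, and the 5 genes of like pattern those with the highest r. Members and lists were chosen with earlier results of these data known. Some genes of the pathway are not reported here.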

Additional observations from a re-analysis of the deposited data

How the results depend on the processing

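Counts of members depended on the libraries and the tool more than directions did, and no member that passed in the report had the opposite sign in any setting. Tm7sf2 and Insig1, which did not pass there, passed as higher with lesion 3 alone (log2 fold change 0.70 and 0.26) and were at -0.06 and -0.07 without lesion 3. Leaving out libraries or replicate numbers gave 8 to 20 members higher (13 in the report) and 1 to 6 lower (5), with 1349 to 2798 of all genes higher and 1352 to 2796 lower. Without lesion 3 the members higher were 20. Without lesion 2, normal region 2 or normal region 3 the members lower were 3, 3 and 2. Scaled by library size only, all genes had a median of -0.14 on the log2 scale, with 1474 genes higher and 3615 lower (29% of calls higher, against 50.5%) and 10 members higher and 6 lower, so changes here are relative to the TMM scale. On that scale Insig1 and Scarb1, which did not pass, had log2 fold changes of -0.09 and -0.13. Members lower were 2 with DESeq2 and 3, 3 and 2 with the FPKM fits (pseudocount 1, pseudocount 0.1, and unfiltered). All genes lower numbered 1577 with DESeq2 and 1989, 2010 and 1811 with those fits. DESeq2 called 18 members higher, and 1717 of all genes. Each lesion alone against the normal regions, chosen after seeing the data, gave 20, 20 and 26 members higher in lesions 1 to 3 and 5, 5 and 1 lower. With lesion 3 alone the synthesis median was 1.85 and the uptake and trafficking median 0.37, and with lesion 2 alone the efflux and esterification median was -0.0019. These are single libraries, so the cause was not tested. Lesion and normal libraries of the same replicate number did not deviate together from their group means (correlation of deviations 0.011, -0.021 and -0.022). This cannot show whether regions shared an animal, which the labels do not give. With the replicate number as a block 15 members were higher and 4 lower, and 2293 genes higher and 2233 lower. At this depth Ggps1, the member with the fewest counts, rests on 33 to 60 counts per library.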
